A study of Homo sapiens with 6 samples.

Results

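Enzymes that remove superoxide and peroxides, and the protein that recharges many of them, were followed here through their mRNAs, namely those of the peroxiredoxins PRDX1 to PRDX6, thioredoxin (TXN), copper-zinc superoxide dismutase (SOD1) and the glutathione peroxidases GPX1 and GPX4. They were taken by symbol, which gave 10 genes of the 68201 in the count table. Each has 1 gene entry in the table, and all 10 are annotated as protein-coding.

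The RNA came from K562, a human line of chronic myelogenous leukaemia cells with erythroid features, grown untreated and with no genetic change. Whole-cell (WC) RNA and RNA of the extracellular vesicles (EVs) shed by these cells were each sequenced in 3 nanopore libraries, with cDNA made from the poly(A) tail and amplified by PCR. The EVs were collected by size exclusion from medium whose serum had been depleted of vesicles, and each replicate had its WC and EV cDNA run together on 1 flow cell. All samples are of 1 cell line, so the spread between libraries is that between cultures and preparations, not between cell lines or donors.

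Superoxide dismutases turn superoxide into hydrogen peroxide, and catalase, glutathione peroxidases and peroxiredoxins turn hydrogen peroxide into water. Peroxiredoxins do so with a reactive cysteine that most of them have reset by thioredoxin, and thioredoxin reductase then restores thioredoxin with electrons from NADPH. Glutathione peroxidases draw on glutathione and, in GPX1 and GPX4, carry selenocysteine, which is written in the mRNA by a UGA codon. Red cell precursors are rich in several of these enzymes, PRDX2 among them.

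Total counts were 2480558 to 3178211 in the WC libraries and 560157 to 881337 in the EV libraries, so EV values rest on fewer reads. Levels are given as normalised read count in CPM, that is, counts relative to the TMM-scaled size of the library. All 8 erythroid genes fixed as markers of K562 had reads, among them GATA1, but HBE1 had only 0 to 2 per library. The summed level of the 8 was 369 to 423 CPM in WC and 564 to 642 CPM in EV libraries. The higher EV sum rested on HBG2 (mean 11.1 CPM in WC and 217 CPM in EV), and without it the sums were 361 to 407 CPM in WC and 368 to 381 CPM in EV. Single genes within these sums differed in both directions. Mean CPM in WC and EV were 84.2 and 144 for HBG1 and 4.47 and 20.2 for TAL1. For TFRC they were 145 and 67.0, and for KLF1 37.8 and 28.5. Of markers of other cell types, the 3 of monocytes and granulocytes had 3 reads together in each WC library and 0 in each EV library, and the 2 fibroblast genes had 0 or 1 read per library. The 4 lymphoid markers summed to 27.3 to 50.9 CPM, mostly from CD3D, with MS4A1 at 0 throughout, and the 2 epithelial markers to 23.3 to 95.7 CPM, nearly all from EPCAM. In WC libraries 2.49% ± 0.246 of the counts were of mitochondrially encoded genes, and in EV libraries 0.326% ± 0.0831 (SD, n = 3). In bulk libraries such as these, fewer vesicles with an RNA and less of that RNA in each cannot be told apart.

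Against WC, the mRNAs of TXN, SOD1 and GPX4 were higher in EVs, and those of PRDX3 and PRDX4 were lower, by factors of 1.36 to 1.73. Scaled by total counts, none of the 3 was called higher and the direction of GPX4 turned. PRDX5 and PRDX6 passed no threshold. Of PRDX1, PRDX2 and GPX1 so few reads were assigned that they were not tested. Thus 3 of the 7 members tested rose and 2 fell at an adjusted p under 0.05, where 14.9% of the protein-coding genes tested rose and 22.2% fell (22.8% and 21.4% of all genes). The 3 that rose, and PRDX4 of the 2 that fell, have canonical transcripts under 1000 nt. Of the tested protein-coding genes of that length 48.3% rose and 9.23% fell. In the same 3 genes every EV library stood above every WC library and in the same 2 every EV library stood below, a separation that 17.5% and 32.5% of the protein-coding genes showed. These counts hold on the TMM scale, and under total-count scaling 0 members rose and 4 fell, with TXN and SOD1 no longer called and PRDX5 and PRDX6 called lower. None of the 7 reached the stricter limits of a log2 fold change of 2 and an adjusted p of 0.01, which 1.64% of protein-coding genes passed in favour of EVs and 5.07% in favour of WC. The median log2 fold change was 0.10 over the 7 members and -0.24 over the 6768 protein-coding genes tested.

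**Figure D1:**
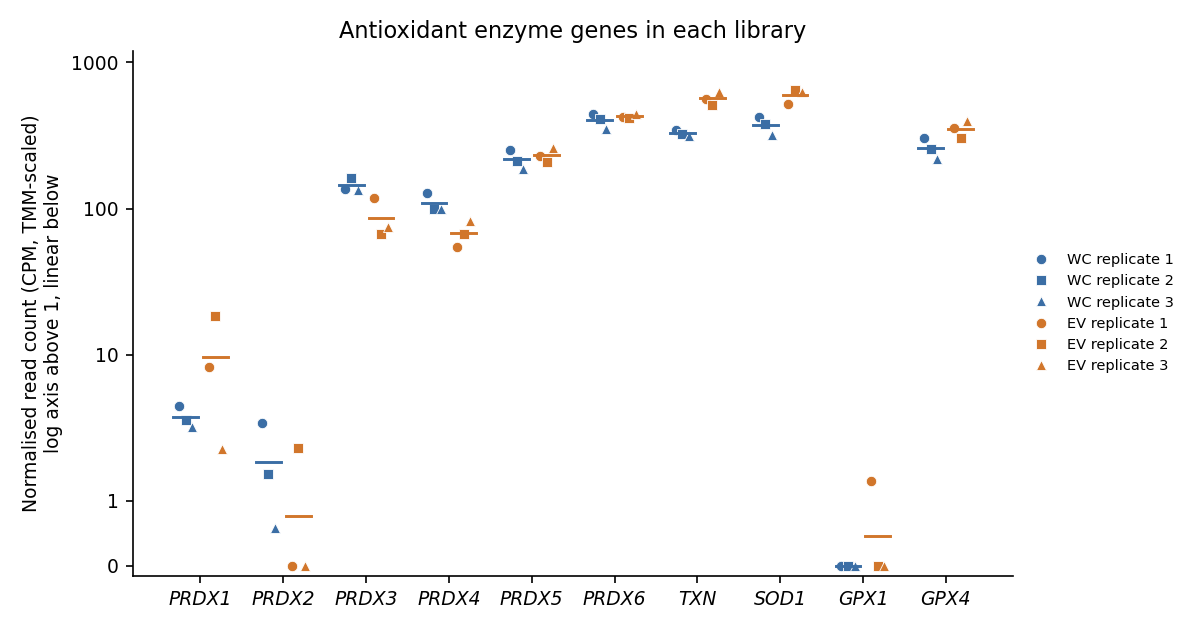
Normalised read count (CPM, TMM-scaled; log axis above 1, linear below) of the 10 genes in each of the 3 WC (blue) and 3 EV (orange) libraries, with a symbol per replicate and a bar at the group mean. On this TMM scale TXN, SOD1 and GPX4 lay higher in every EV library than in any WC library, and PRDX3 and PRDX4 lay lower. PRDX1, PRDX2 and GPX1 stayed under 20 CPM. Under total-count scaling TXN, SOD1 and GPX4 had log2 fold changes of 0.13, 0.02 and -0.21, and none was called higher.

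Thioredoxin is the small disulfide reductase that hands electrons to peroxiredoxins, ribonucleotide reductase and other targets. Its gene lies on the minus strand at chr9:110243810-110256507 (hg38). TXN stood at 346, 323 and 315 CPM in WC replicates 1, 2 and 3 and at 565, 509 and 625 CPM in the EV replicates. The groups did not overlap, and EV exceeded WC within each of the 3 replicates. Means were 328 ± 16.0 in WC and 566 ± 58.4 CPM in EV (SD, n = 3), a log2 fold change of 0.79 ± 0.15 (SE, 95% interval 0.49 to 1.09) with an adjusted p of 0.000102 by edgeR's quasi-likelihood test. Scaled by total counts instead, the fold change was 0.13 (edgeR adjusted p = 0.381), with the median of all genes tested at -0.78 on that scale and at -0.13 on the TMM scale.

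SOD1, at chr21:31659666-31668931 on the plus strand, encodes the cytosolic superoxide dismutase. It was read at 421, 379 and 318 CPM in WC and at 517, 648 and 630 CPM in EV. As with TXN, the lowest EV library stood above the highest WC library. The means of 373 ± 51.9 and 598 ± 70.8 CPM (SD, n = 3) differed by a log2 fold change of 0.68 ± 0.15 (SE, 95% interval 0.36 to 1.00, edgeR adjusted p = 0.000848). By total counts it was 0.02 (edgeR adjusted p = 0.902).

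GPX4 is the glutathione peroxidase that reduces lipid hydroperoxides within membranes, and its loss leads to ferroptosis. The gene is at chr19:1103982-1106791, plus strand. Its WC values were 301, 257 and 218 CPM and its EV values 354, 303 and 395 CPM. The groups were separated by less than 2 CPM, between WC replicate 1 and EV replicate 2. Its log2 fold change was 0.44 ± 0.17 (SE, 95% interval 0.10 to 0.78, edgeR adjusted p = 0.0335), from means of 259 ± 41.9 and 351 ± 46.1 CPM (SD, n = 3). With the replicate as a block the change was 0.44 and the call was lost (edgeR adjusted p = 0.053). The call was also lost without WC replicate 2 (0.37), WC replicate 3 (0.27) or EV replicate 3 (0.34), with DESeq2 (0.33, adjusted p = 0.195), without a filter on low counts (0.23, edgeR adjusted p = 0.474) and with WC libraries thinned to EV depth (0.32, edgeR adjusted p = 0.120), and by total counts the direction turned (-0.21, edgeR adjusted p = 0.215).

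PRDX3 and PRDX4 encode the peroxiredoxins of the mitochondrial matrix and of the endoplasmic reticulum. PRDX3, at chr10:119167720-119178812 on the minus strand, was read at 135, 163 and 134 CPM in WC and at 118, 67.1 and 75.3 CPM in EV. All EV libraries were below all WC libraries, EV replicate 1 only narrowly. The log2 fold change was -0.69 ± 0.20 (SE, 95% interval -1.11 to -0.27, edgeR adjusted p = 0.00775), and the means were 144 ± 16.3 in WC and 86.8 ± 27.3 CPM in EV (SD, n = 3). Without EV replicate 2 it was -0.54 and no longer called (edgeR adjusted p = 0.0655), and without EV replicate 1 it was -1.05.

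PRDX4, at chrX:23664262-23686397 on the plus strand, had 128, 99.3 and 99.2 CPM in WC and 54.9, 67.1 and 82.2 CPM in EV. Again no EV library reached a WC library. The means of 109 ± 16.5 and 68.0 ± 13.7 CPM (SD, n = 3) gave a log2 fold change of -0.70 ± 0.21 (SE, 95% interval -1.13 to -0.27, edgeR adjusted p = 0.00784). The within-replicate log2 ratios of EV to WC ran from -1.22 in replicate 1 to -0.27 in replicate 3, and the call held whichever library was left out (-0.87 to -0.57).

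PRDX5, a peroxiredoxin found in mitochondria, peroxisomes and cytosol, is encoded at chr11:64318121-64321811 on the plus strand. It had 252, 212 and 187 CPM in WC and 231, 208 and 260 CPM in EV, so the groups overlapped. Its log2 fold change of 0.10 had a 95% interval of -0.25 to 0.45 (edgeR adjusted p = 0.649). PRDX6, at chr1:173477330-173488815 on the plus strand, works with a single reactive cysteine, is recharged by glutathione rather than thioredoxin and also has phospholipase activity. It had 445, 409 and 353 CPM in WC and 423, 416 and 445 CPM in EV, again overlapping, with a log2 fold change of 0.09 (95% interval -0.22 to 0.40, edgeR adjusted p = 0.652). For both genes the sign turned under total-count scaling, where they were called lower in EVs (-0.55 and -0.57, edgeR adjusted p = 0.0044 and 0.00105).

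**Figure D2:**
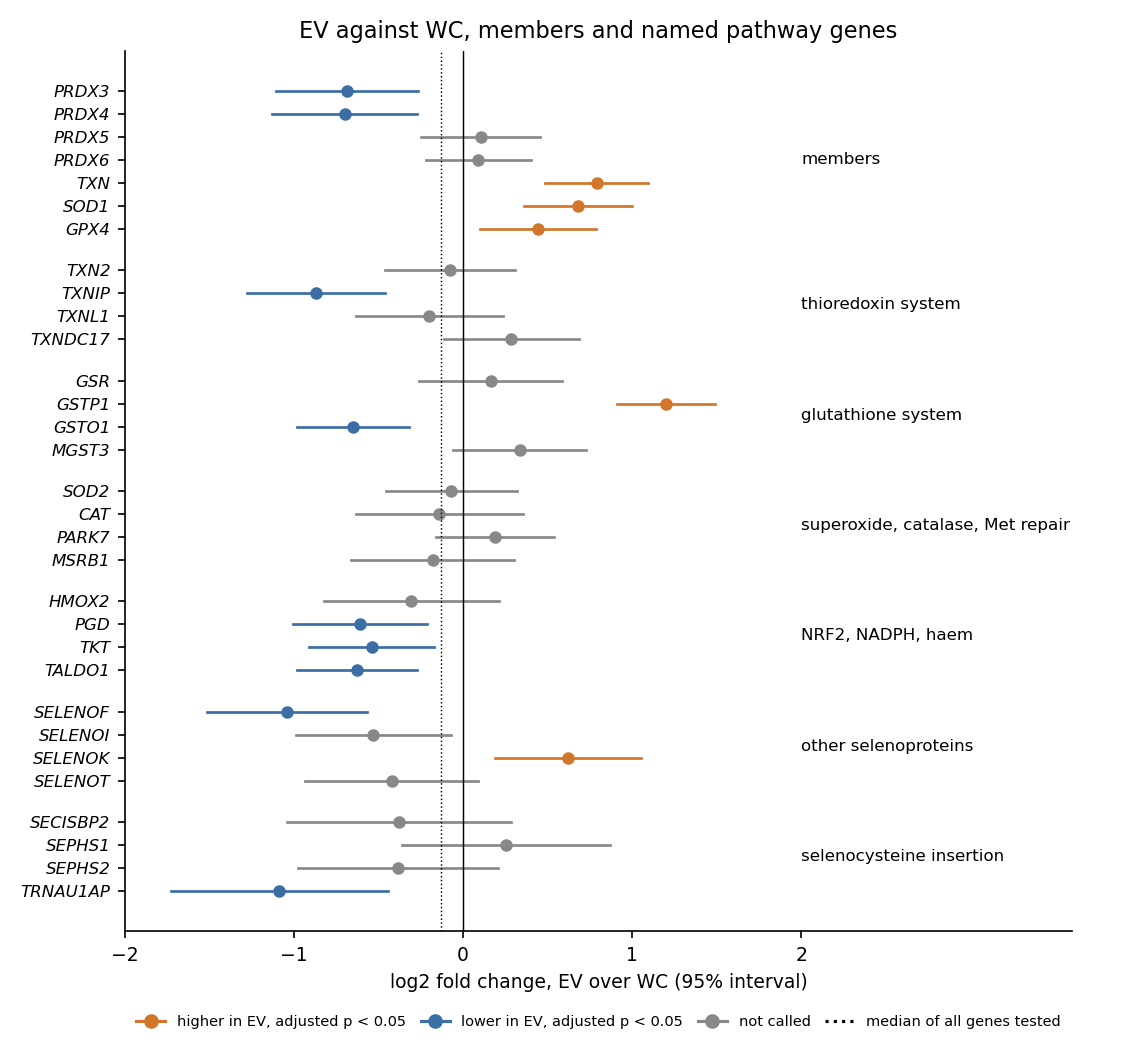
Log2 fold change of EV over WC (horizontal axis, 95% interval as a line) for the 7 members tested and for the 24 named genes of 6 related lists, coloured by call, with the median of all genes tested as a dotted line. Of the members, TXN, SOD1 and GPX4 lie to the right of 0 and PRDX3 and PRDX4 to the left. Under total-count scaling TXN, SOD1 and GPX4 were at 0.13, 0.02 and -0.21, none called higher. Of the 24 other genes 2 were called higher (GSTP1 and SELENOK, the latter at -0.03 under total-count scaling) and 7 lower. Of all protein-coding genes tested 14.9% were called higher and 22.2% lower.

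Compared per length, as TPM over all annotated exon bases of a gene, TXN had the highest level of the tested members in both groups. This order depends on the exon bases used, 1010 in TXN and 1975 in SOD1. By mean CPM, with no division by length, PRDX6 (402) and SOD1 (373) stood above TXN (328) in WC. In EVs SOD1 (598) stood above TXN (566) by mean CPM. In WC it had 312 ± 6.80 TPM, followed by PRDX5 (241 ± 20.4), SOD1 (181 ± 13.7), PRDX6 (167 ± 8.91), GPX4 (134 ± 12.9), PRDX4 (56.1 ± 5.18) and PRDX3 (41.1 ± 5.32; SD, n = 3 for each level). The ranges of mean ± SD overlapped for SOD1 and PRDX6 and for no other neighbours in this order. In EVs the order of levels was TXN (277 ± 30.8 TPM), SOD1 (149 ± 8.37), PRDX5 (134 ± 15.04), GPX4 (94.0 ± 13.0), PRDX6 (91.4 ± 6.26), PRDX4 (17.9 ± 2.33) and PRDX3 (12.9 ± 5.14). There SOD1 and PRDX5, GPX4 and PRDX6, and PRDX4 and PRDX3 overlapped in these ranges. TPM served only to order genes within a group, since on that scale every tested member was lower in EVs, TXN and SOD1 included.

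All 10 genes together held 0.225% ± 0.0159 of a WC library and 0.183% ± 0.00928 of an EV library (SD, n = 3). These shares hold next to nothing of PRDX1, PRDX2 and GPX1, to which hardly any reads were assigned. For PRDX1 and PRDX2 the isoform means given below were far higher (389 and 448 normalised reads), so the shares leave most of their reads out. Of counts in protein-coding genes alone they held 0.402% ± 0.0334 and 0.382% ± 0.0195. No test was run on these sums.

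The members are short transcripts. The canonical transcripts of the 7 tested had a median length of 895 nt, against 3273 nt over 6759 tested protein-coding genes with a canonical transcript in GENCODE v44. Among the 509 genes under 1000 nt the median log2 fold change was 0.48, 48.3% rose and 9.23% fell, while among the 2677 genes of 4000 nt and over it was -0.45. TXN, SOD1, GPX4, PRDX4 and PRDX5 belong to the shortest class, in which PRDX4 and PRDX5 lay below the class median and TXN and SOD1 above it. PRDX3 and PRDX6 belong to the class from 1500 to under 2500 nt, with a median of -0.21. After regression of the fold changes on exon length over all tested protein-coding genes, TXN was at 0.44, SOD1 at 0.61, GPX4 at 0.34, PRDX6 at 0.09, PRDX5 at -0.30, PRDX3 at -0.50 and PRDX4 at -0.80 on the log2 scale. That regression used all annotated exon bases, 1975 in SOD1 and 1840 in GPX4, and not the canonical transcripts of 895 and 851 nt, and by the latter the change of GPX4 (0.44) lay at the median of its class (0.48). The part of length in the values of any member was not tested further.

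**Figure D3:**
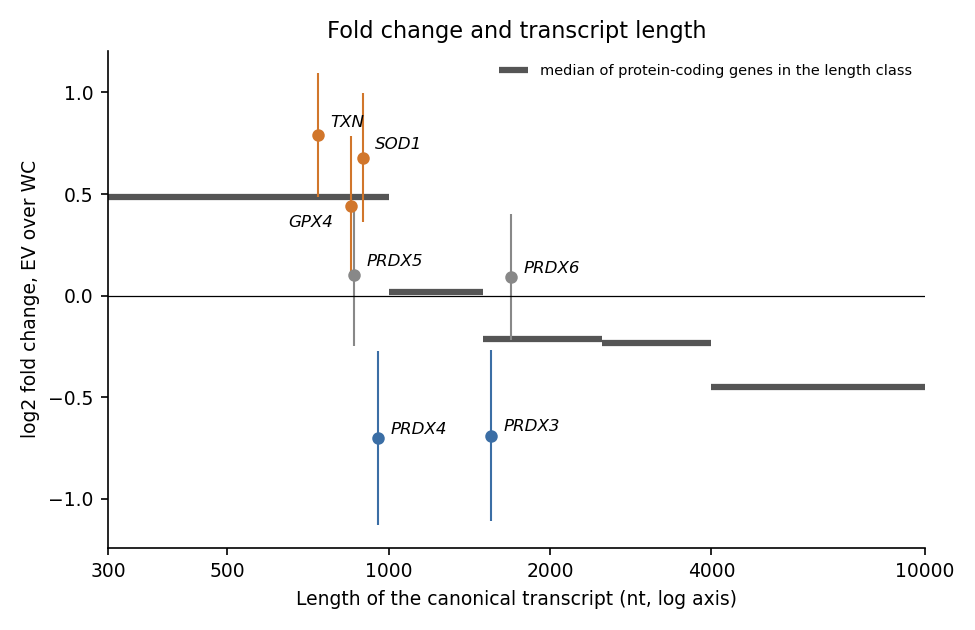
Log2 fold change of EV over WC (vertical axis) against the length of the canonical transcript (nt, log axis) for the 7 members tested (points with 95% intervals, coloured by call as orange for higher, blue for lower and grey for not called). Grey horizontal bars are the medians of tested protein-coding genes in 5 length classes, from 0.48 under 1000 nt to -0.45 at 4000 nt and over. TXN and SOD1 lie above the bar of their class and PRDX3, PRDX4 and PRDX5 below theirs, and GPX4 (0.44) lies close to its bar. All of this is on the TMM scale. Under total-count scaling TXN, SOD1 and GPX4 were at 0.13, 0.02 and -0.21, and class medians were not computed on that scale.

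PRDX1 and PRDX2, the cytosolic peroxiredoxins, had hardly any assigned reads. PRDX1 (chr1:45510914-45542732, minus strand) had 13, 14 and 11 reads in WC and 6, 8 and 1 in EV, and PRDX2 (chr19:12796820-12801800, minus strand) had 10, 6 and 2 in WC and 0, 1 and 0 in EV. For PRDX1 the pooled 38 WC and 15 EV reads gave an EV-to-WC ratio of 2.53 (exact 95% interval 1.29 to 4.72, counting error only), but EV replicates spread from 2.28 to 18.5 CPM around the WC values of 3.199 to 4.47. For PRDX2 the ratio was 0.357 (exact 95% interval 0.00856 to 2.26), from 18 reads and 1 read. Where a lower filter or a left-out library let PRDX1 be tested, its log2 fold change ran from 0.67 without EV replicate 2 (edgeR adjusted p = 0.471) to 1.69 without EV replicate 3 (edgeR adjusted p = 0.0168). Neither direction was resolved from the few reads assigned.

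The isoform table of the authors, made from the same reads with FLAIR, held both genes in quantity. Its means over the 6 libraries, in normalised reads, summed to 389 for PRDX1 and 448 for PRDX2. The gene means, scaled with the gene table's own size factors, were 8.47 and 1.71, or 2.18% and 0.383% of the isoform sums. For the 7 tested members the gene mean was 106% (TXN) to 138% (PRDX3) of the isoform sum. PRDX1 and PRDX2 were also the only members whose last 300 transcribed bases lay under exons of another counted gene. Here and below such exons are those of counted genes placed in GENCODE v44. In PRDX1 all 300 were covered by MMACHC, a cobalamin-processing gene on the opposite strand that shares 501 exon bases with it and had 0 to 9 reads per library. In PRDX2 66.7% were covered by an antisense lncRNA (ENSG00000267062) with 247 shared bases and 0 reads. By the study's methods, reads over several genes were left unassigned as ambiguous, and the strand setting of the counting is not given in the sources used here.

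The same pairing of values was seen across genes. Of 526 protein-coding genes with an isoform sum of at least 100, 60 (11.4%) had a gene mean under 10. Among the 118 with another gene's exon in the last 300 bases these were 51 (43.2%), with a median gene-to-isoform value of 4.51%, and among the 408 without one they were 9 (2.21%), with a median of 130%. How far overlap sets the gene counts of PRDX1 and PRDX2 was not tested on reads. The isoform means pool WC and EV, so they hold no EV-to-WC value that could replace the missing gene counts. The authors also compared isoforms between WC and EV, and those fold changes were not used here.

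**Figure D4:**
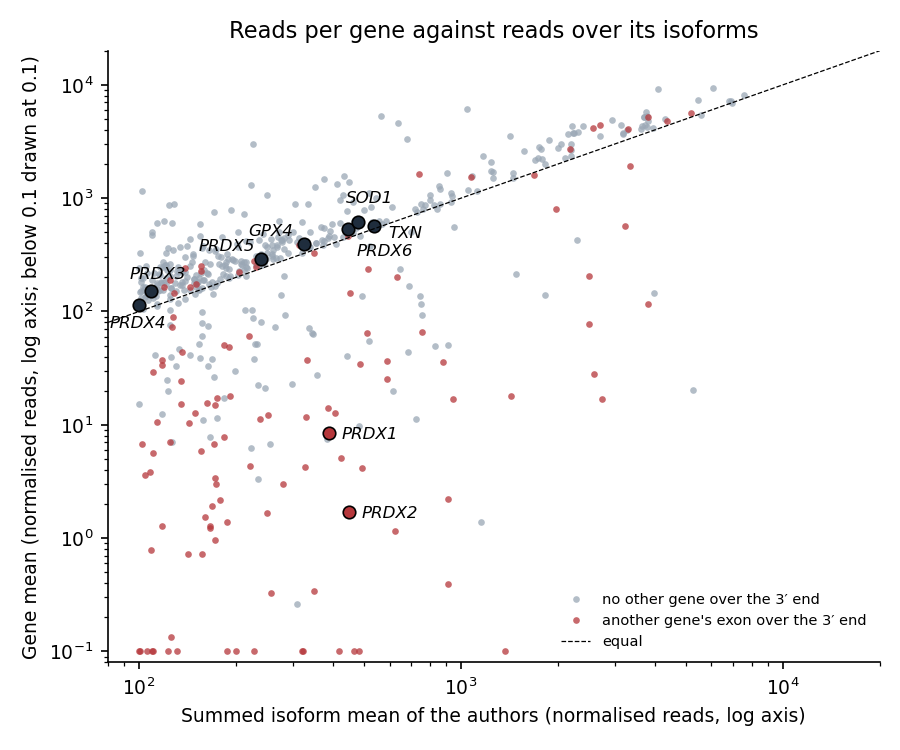
Gene mean against summed isoform mean (both in normalised reads over the 6 libraries, log axes; gene means under 0.1 drawn at 0.1) of 526 protein-coding genes, in red where another gene's exon covers bases of the last 300 and in grey where none does. Black-rimmed points are members, PRDX4 (99.7) included although just under the minimum of 100. PRDX1 (389 against 8.47) and PRDX2 (448 against 1.71) lie far below the dashed line of equality, and the other 7 members lie on or just above it.

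GPX1, the most widely expressed cytosolic glutathione peroxidase, is encoded at chr3:49357174-49358605 on the minus strand. It had 0 reads in the 3 WC libraries and 1, 0 and 0 in the EV libraries, which at 3 counts allows up to 1.21 CPM of total counts in a WC library and 5.36 in an EV library. No FLAIR model lay over its span, and no other counted gene placed in GENCODE v44 covered its last 300 bases. Counted genes without a place there (v44 held 61757 of 68201) could not be checked for overlap. The gene was not detected at this depth as counted, and no fold is given.

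GPX1 and GPX4 share the selenocysteine codon, which the deposited isoform predictions bring into view. The coding sequence around it is shown for both members and, for comparison, for SELENOW, a small thioredoxin-fold selenoprotein, and TXNRD1, the cytosolic thioredoxin reductase. The sequences were read from the GENCODE v44 transcripts, 5′ to 3′, with the TGA (UGA in the mRNA) of selenocysteine in capitals.
GPX1: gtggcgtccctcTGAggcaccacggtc
GPX4: gtggcctcccagTGAggcaagaccgaa
SELENOW: tattgtggcgctTGAggctacaagtcc
TXNRD1: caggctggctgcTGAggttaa
This TGA is codon 49 of 203 in GPX1 (chr3:49358132-49358134), codon 73 of 197 in GPX4 (chr19:1105403-1105405), codon 13 of 87 in SELENOW and codon 648 of 649 in TXNRD1.

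FLAIR's productivity step sorts each isoform model as productive (PRO), with a premature stop codon (PTC), without a start codon (NGO) or with a start but no stop codon (NST). All 21 models of GPX4 were called PTC, including the annotated GPX4-201, which held 52.7% of the isoform mean of the gene. In 20 of the 21 the predicted stop ended at chr19 position 1105405, the last base of the TGA printed above, and in 1 it ended at 1105347. Stops at this codon were also predicted in other selenoprotein genes, since 13 of the 15 that had a model had at least 1 such model. These models were not always called PTC. In SELENOS 3 models stopped there, and all 4 of its models were PRO. Of the 44 PTC models of selenoprotein genes, GPX4 included, 30 stopped at the selenocysteine codon, 20 of them in GPX4. Of annotated protein-coding models, 7 of 22 (31.8%) were PTC in these genes, GPX4 left out, and 58 of 15347 (0.378%) in genes of no selenoprotein. In 20 of the 21 GPX4 models the PTC call thus stood on the selenocysteine codon, and whether translation ends there was not measured.

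The other members were mostly productive. Isoforms called PRO held 100% of the isoform mean of TXN, 98.7% of PRDX6, 90.3% of PRDX4, 89.6% of PRDX1, 89.2% of SOD1, 87.7% of PRDX2 and 86.5% of PRDX5. PRDX3 stood at 52.2%, with 33.1% in NGO models. Its main isoform was the annotated PRDX3-201 of 1553 nt and 7 exons, with 47.4%, and the next was an unannotated NGO model of 1496 nt and 6 exons, with 26.5%.

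One annotated isoform led in every member with models, from 98.1% of the mean of TXN (TXN-202, 528 nt) over 84.0% of PRDX2, 81.9% of PRDX1, 78.2% of SOD1, 74.9% of PRDX4, 71.8% of PRDX6 and 57.7% of PRDX5 to the 47.4% of PRDX3. PRDX6 had a second form of note, an unannotated productive model of 1396 nt in 3 exons, with 26.8% of the mean beside the 890 nt and 5 exons of PRDX6-201. It ended at position 173488815, and the model of PRDX6-201 ended at position 173488015, shorter than the 1690 nt of the annotated canonical transcript. SOD1 likewise had a long and a short form of SOD1-201, 879 nt with 78.2% and 609 nt with 5.07%, which ended at positions 31668931 and 31668661. Isoforms were not compared between WC and EV here, since no isoform value per library was at hand. The paper reports such a comparison, and its isoform fold changes were not used.

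**Figure D5:**
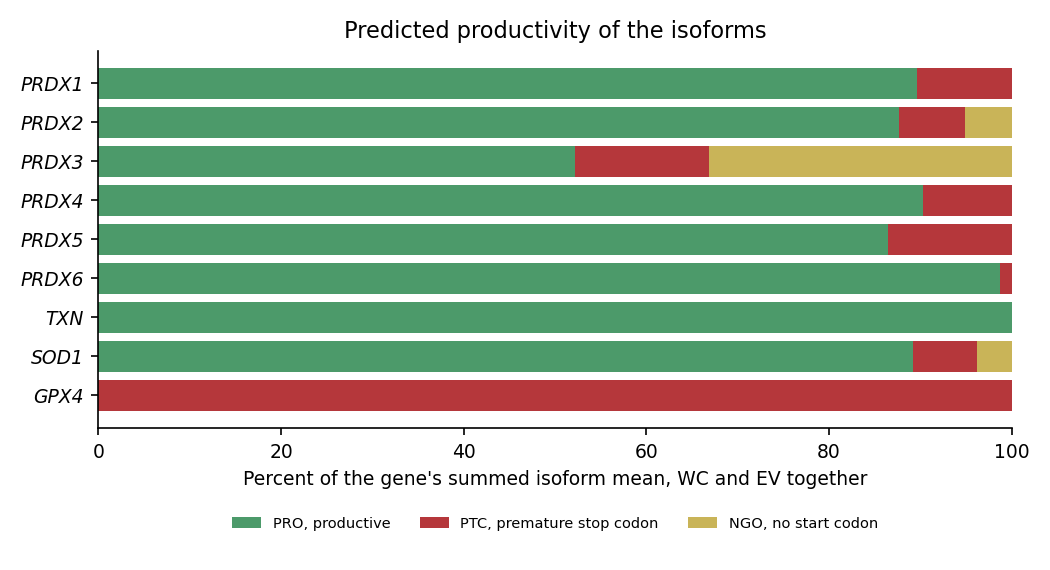
Percent of each gene's summed isoform mean (horizontal axis, WC and EV together, 9 members with models) in isoforms that FLAIR called PRO (green), PTC (red) or NGO (yellow). GPX4 is at 100% PTC, with the predicted stop at its selenocysteine codon in 20 of 21 models. TXN is at 100% PRO and PRDX3 has the highest NGO percentage, 33.1%.

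Processed pseudogenes can share reads with their parents. By symbol, 23 pseudogenes of the members were in the table, and 13 of them had a read. Only TXNP6 and TXNP4 were tested, and both were higher in EVs, as were 62.9% of the pseudogenes tested, of which 11.4% were lower. TXNP6 had 34, 22 and 20 reads in WC and 17, 5 and 15 in EV (log2 fold change 1.62 ± 0.39, SE, edgeR adjusted p = 0.00165), and TXNP4 had 24, 18 and 13 in WC and 17, 6 and 9 in EV (1.87 ± 0.39, SE, edgeR adjusted p = 0.000384). Both are 310 nt long and 93.3% identical to the TXN mRNA over the aligned part, so their reads cannot be told from those of TXN with certainty. TXNP5 (15 WC and 11 EV reads), TXNP1 (13 and 9) and SOD1P3 (12 and 2) were not tested. With pseudogene reads added to their parents, TXN was at 0.85 (edgeR adjusted p = 4.28e-05), and the other 6 members tested stayed on their side of the threshold.

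Around the members, 77 further genes of the same chemistry were taken as 6 lists. Of these 53 were tested, 9 rose in EVs, 13 fell and 31 passed no threshold, with a median log2 fold change of -0.31, against -0.24 in all protein-coding genes tested. Among those protein-coding genes 14.9% rose and 22.2% fell, called the background below. No list count was tested against it. Under total-count scaling 2 rose and 36 fell, as against 1066 and 4494 of all 8716 genes tested (1987 and 1864 on the TMM scale).

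In the thioredoxin system 1 of 8 genes tested rose and 1 fell (background 14.9% and 22.2%). TXNIP, the inhibitor that binds reduced thioredoxin, had 179 ± 13.8 CPM in WC and 95.8 ± 29.0 CPM in EV (SD, n = 3), a log2 fold change of -0.87 (edgeR adjusted p = 0.000871) opposite in sign to that of TXN. TXNRD2, the mitochondrial thioredoxin reductase, was the gene that rose (1.42, edgeR adjusted p = 0.00435) and is named after its value was seen. It rests on few reads, 13, 21 and 23 in WC and 12, 7 and 5 in EV. TXN2, the mitochondrial thioredoxin, was at -0.08, TXNL1 at -0.20 and TXNDC17 at 0.29, none called, although without EV replicate 1 TXNDC17 was called at 0.48 (edgeR adjusted p = 0.0234).

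The glutathione list had 3 of 15 higher and 6 lower (background 14.9% and 22.2%). GSTP1, the pi-class glutathione transferase, had the largest rise of the 24 named pathway genes, with 429 ± 34.0 CPM in WC libraries and 984 ± 99.01 CPM in EVs (SD, n = 3, log2 fold change 1.20 ± 0.14, SE, edgeR adjusted p = 1.46e-07). GCLM, the modifier subunit of the rate-limiting enzyme of glutathione synthesis (1.84, edgeR adjusted p = 7.7e-05), and GLRX5, a mitochondrial glutaredoxin of iron-sulfur cluster assembly (0.91, edgeR adjusted p = 0.00156), also rose, and both are named after their values were seen. GCLM had 16, 26 and 22 reads in WC and 17, 10 and 9 in EV. GSTO1 fell from 346 ± 29.5 to 220 ± 21.8 CPM (-0.65, edgeR adjusted p = 0.00186). The other 5 that fell, also named after their values were seen, were the glutaredoxins GLRX (-1.20, edgeR adjusted p = 0.0444) and GLRX2 (-0.57, 0.0252) and the glutathione transferases MGST1 (-0.83, 0.00527), MGST2 (-0.75, 0.009) and GSTK1 (-0.70, 0.00816). GLRX had only 2, 3 and 4 reads in EV. GSR, glutathione reductase, was at 0.16 and MGST3 at 0.33, neither called.

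Of the 6 genes tested for superoxide, catalase and methionine repair, none was called, by edgeR on the TMM scale (0 at an adjusted and 0 at an unadjusted p under 0.05) or by DESeq2 (0). By total counts edgeR called SOD2 (-0.73), CAT (-0.79), MSRB1 (-0.84) and PARK7 (-0.46) lower. SOD2, the manganese dismutase of mitochondria, was read at 89.0 ± 3.17 CPM in WC and 85.6 ± 9.28 CPM in EV (SD, n = 3, log2 fold change -0.07 ± 0.19, SE). Its difference from SOD1 was not tested. CAT, catalase, was at -0.14, PARK7 at 0.19 and MSRB1 at -0.18.

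Among regulators and targets of NRF2, the transcription factor of the antioxidant response, 3 of 12 rose and 3 fell (background 14.9% and 22.2%). Those that fell were PGD (-0.61), TKT (-0.54) and TALDO1 (-0.63), enzymes of the pentose phosphate pathway, with edgeR adjusted p-values of 0.0117, 0.0171 and 0.00451. The calls of PGD and TKT were lost without EV replicate 3 (-0.48 and -0.45), and that of TKT also without EV replicate 2 (-0.49). Among those that rose, and named after their values were seen, were NFE2L2, which encodes NRF2 itself (1.31, edgeR adjusted p = 0.000802), and the quinone reductase NQO1 (1.04, edgeR adjusted p = 0.00738). HMOX2 was not called (-0.31), and HMOX1, the inducible haem oxygenase, had 0 reads in all 6 libraries.

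Of other selenoproteins 2 of 7 rose and 2 fell (background 14.9% and 22.2%). SELENOF, of the endoplasmic reticulum, went from 68.6 ± 3.19 to 32.1 ± 7.84 CPM (SD, n = 3, log2 fold change -1.04, edgeR adjusted p = 0.000668), and SELENOS, named after its value was seen, was at -0.69 (edgeR adjusted p = 0.0331). SELENOK rose by 0.62 (edgeR adjusted p = 0.018), a call that was lost without WC replicate 1 (0.54), WC replicate 3 (0.47), EV replicate 2 (0.52) or EV replicate 3 (0.60) and that turned to -0.03 under total-count scaling. SELENOW, whose codon is printed above, was at 0.91 (edgeR adjusted p = 0.00873) and is also named after its value was seen. SELENOI (-0.53) and SELENOT (-0.42) were not called, although SELENOI was called lower without WC replicate 1 (-0.69) or EV replicate 1 (-0.63), without a filter (-0.74), with WC thinned (-0.73) and by total counts (-1.19), and SELENOT by total counts (-1.07). DESeq2 called 0 of these selenoprotein genes higher and 1 lower. In the machinery that inserts selenocysteine, TRNAU1AP was the 1 of 5 genes called (background 14.9% higher and 22.2% lower), at -1.09 (edgeR adjusted p = 0.00613). SECISBP2 was at -0.38, SEPHS1 at 0.25 and SEPHS2 at -0.38.

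The genes whose pattern over the 6 libraries lay closest to the median of the members, by Euclidean distance between centred log2 CPM, were NDUFAB1 (0.132), SEH1L (0.140) and ATP5MC3 (0.141). Their log2 fold changes were 0.20, 0.20 and 0.26, and none was called. That median averages members that rose and members that fell, so closeness to it describes no single member.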

How the data were processed

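K562 WC and EV poly(A) RNA was sequenced in 3 libraries each. The authors basecalled with Guppy, mapped reads with minimap2 to hg38, and ran featureCounts in its mode for long reads on the annotation GENCODE v41. What the authors deposited per gene and library are raw counts. The deposited signal values are the authors' counts divided by a DESeq2 size factor, per library for genes and as a mean over the 6 libraries for FLAIR isoforms. The deposited score in the isoform models is the authors' mapping quality, used for nothing here. Columns with the authors' fold changes, p-values, group means and TPM were not used.

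Here, counts of 68201 genes (68247 lines, 46 IDs on 2 lines) entered edgeR 4.0.16 (R 4.3.3), which scaled them by TMM, kept 8716 by filterByExpr, fitted a robust quasi-likelihood model, and adjusted p-values after Benjamini-Hochberg. A gene was called at an adjusted p under 0.05. CPM use the TMM-scaled library size. Positions, exons, canonical transcripts and sequences came from GENCODE v44, which held 61757 of the genes and 99.95% of the counts. Pseudogenes were aligned to parent transcripts with blastn 2.17.0. Pooled read ratios carry exact binomial intervals, and these and the limits at 3 counts cover counting error only, since PCR copies are not independent molecules. On simulated data edgeR found 70% of 50 genes changed by 1 on the log2 scale and 100% of those changed by 2, 3 or 4, and called 0.0731% of 8203 unchanged genes. The simulated WC and EV libraries shared the same mean profile apart from the changed genes. These were drawn from better-read genes, with as many raised as lowered. The simulation therefore cannot bear on the choice of scaling or on genes with few reads.

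Members and lists were chosen with earlier results of these data known. Named were all members, the 5 pseudogenes with the highest mean CPM, the 4 tested genes with the highest mean CPM in each list, the 3 genes most alike and the 2 largest isoforms per member. The values of 1 gene in the lists are not reported here. By the paper, WC and EV libraries of a replicate shared a culture and a flow cell. Correlations of same-number libraries after removal of group means were 0.0622, 0.0237 and 0.00445, and a fit with the replicate as a block was run beside the unblocked one. Alternatives were DESeq2 1.42.0, RLE and total-count scaling, no filter, a mean of 5 reads, thinning, each library left out, summed pseudogene reads and regression on length. Genes named after their values were seen were not followed singly through these alternatives. Python 3.11.15, pandas 2.3.3, scipy 1.17.1 and matplotlib 3.10.9 were also used.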

Additional observations from a re-analysis of the deposited data

How the results depend on the processing

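Scaling mattered most. By total counts the median of all genes tested moved from -0.13 to -0.78 on the log2 scale, 0 members rose and 4 fell (PRDX3, PRDX4, PRDX5 and PRDX6), and 2 pathway genes rose and 36 fell. The signs of GPX4 (-0.21), PRDX5 (-0.55), PRDX6 (-0.57), TXNDC17 (-0.38), GSR (-0.51), MGST3 (-0.32), PARK7 (-0.46), SELENOK (-0.032), SEPHS1 (-0.40), NDUFAB1 (-0.46), SEH1L (-0.45) and ATP5MC3 (-0.40) turned. Without a filter PRDX5 (-0.11), PRDX6 (-0.13), GSR (-0.057), PARK7 (-0.023), NDUFAB1 (-0.018) and SEH1L (-0.0031) turned, and with DESeq2 PRDX5 (-0.0098) and PRDX6 (-0.023). Of these only GPX4 and SELENOK were called in the first place, and the cause was not tested. With a library left out, 2 to 3 members rose and 1 to 2 fell, 7 to 8 pathway genes rose and 9 to 15 fell, 2 to 3 pseudogenes rose and 0 fell, PRDX5 ranged from -0.059 to 0.17, PRDX6 from -0.062 to 0.11, TXN2 from -0.31 to 0.078 and GSR from -0.012 to 0.37. PRDX1 was called higher without EV replicate 3 (1.69) and at a minimum mean of 5 reads (1.32, edgeR adjusted p = 0.0479), and was not called without EV replicate 1 (1.43) or 2 (0.67), without a filter (1.12), with DESeq2 (1.24) or with pseudogene reads added (1.21, edgeR adjusted p = 0.0549). The members' share was 0.217% to 0.233% in WC and 0.1804% to 0.189% in EV with a library left out, and 0.402% and 0.382% of protein-coding counts. With WC thinned to EV depth 0 pseudogenes were called, since neither passed the filter. With the replicate block, which takes up the pairing of libraries, 2 members rose and 2 fell, and the call of GPX4 (0.44, edgeR adjusted p = 0.053) was the only one to change among the named genes. A gene at 3 counts in an EV library stands at 3.40 to 5.36 CPM of total counts, which limits what can be seen of PRDX1, PRDX2 and GPX1, few or 0 of whose reads were assigned in the deeper WC libraries as well. The strand and multimapping settings of the counting are not given in the sources used here.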
